A study of Mus musculus with 12 samples.

Results

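The genes described here are 33 genes of macrophages, monocytes and dendritic cells, measured by RNA sequencing of whole mouse ileum, the last segment of the small intestine. The genes were chosen by name, as markers or working parts of these cells, with earlier results of these data known. Each of the 33 symbols matched 1 of the 54838 rows of the deposited gene counts, and all 33 passed the filter on low counts that left 15938 genes for testing. The libraries came from female C57BL/6J mice, 8 to 14 weeks of age, an inbred wild-type strain. Mice drank normal water or 25 mM ZnSO4 for 7 days and were then injected with PBS or with 200 µg of the synthetic glucocorticoid dexamethasone (Dex) in PBS, and the ileum was taken 2 h later. The 4 groups of 3 mice are called water + PBS, water + Dex, ZnSO4 + PBS and ZnSO4 + Dex, and every mouse received an injection. The tissue was not sorted, so in these bulk samples fewer cells of a type and less RNA per cell cannot be told apart.

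Macrophages and dendritic cells together form the mononuclear phagocytes of the gut wall. Intestinal macrophages are renewed largely from blood monocytes that enter through the chemokine receptor CCR2, and in the tissue they take up the fractalkine receptor CX3CR1, the growth factor receptor CSF1R and scavenger receptors. They engulf dying cells and bacteria, and in the healthy gut they do so with little inflammatory output. Conventional dendritic cells depend on the receptor FLT3. They fall into a cross-presenting class with XCR1, CLEC9A and BATF3, and a second class marked by SIRPα. Glucocorticoids bind the glucocorticoid receptor, which leukocytes and epithelial cells both carry, and in cultured macrophages they are known to raise the scavenger receptor CD163 and the engulfment receptor MERTK.

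The stretches of DNA just before the start of 5 members are shown because these are among the 7 members called in the comparisons below. Each is 150 bases, read in the direction of the gene, from the RefSeq promoter table of GRCm38.p6, the same assembly as mm10. They lie at chr6:124304501-124304650 (plus strand) for Cd163, chr2:14229242-14229391 (plus) for Mrc1, chr2:128698765-128698914 (plus) for Mertk, chr9:123862030-123862179 (minus) for Xcr1 and chr7:128062490-128062639 (plus) for Itgam. None reaches into an annotated exon of its gene. The stretches of Cd163, Mertk, Xcr1 and Itgam end at the RefSeq start, and that of Mrc1 ends 22 bases before it. Capitals mark AGAACA, the element bound by a single glucocorticoid receptor molecule, and GAGGAA, the core of the site of PU.1, the master regulator of myeloid genes, or their reverse complements.
Cd163: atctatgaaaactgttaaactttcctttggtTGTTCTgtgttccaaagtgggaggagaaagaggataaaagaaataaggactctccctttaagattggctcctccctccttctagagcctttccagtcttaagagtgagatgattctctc
Mrc1: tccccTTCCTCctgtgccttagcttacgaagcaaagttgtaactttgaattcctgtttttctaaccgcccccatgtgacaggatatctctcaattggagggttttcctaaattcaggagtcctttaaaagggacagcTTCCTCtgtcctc
Mertk: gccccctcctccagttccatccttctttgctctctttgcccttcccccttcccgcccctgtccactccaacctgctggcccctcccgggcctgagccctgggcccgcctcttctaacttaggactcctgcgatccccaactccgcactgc
Xcr1: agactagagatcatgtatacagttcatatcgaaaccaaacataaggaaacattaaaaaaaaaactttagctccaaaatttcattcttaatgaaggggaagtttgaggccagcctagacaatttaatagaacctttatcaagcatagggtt
Itgam: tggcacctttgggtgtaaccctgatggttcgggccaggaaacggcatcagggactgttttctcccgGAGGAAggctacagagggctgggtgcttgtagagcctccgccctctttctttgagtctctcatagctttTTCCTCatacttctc
Cd163 carried 1 AGAACA in its stretch, Mrc1 and Itgam carried 2 GAGGAA each, and the letters of neither motif were found in those of Mertk and Xcr1. Over 250 bases before the start and on both strands, AGAACA was found in 6 of the 24 members with a promoter in the table, and in 16.2% of 27025 promoters of all genes. GAGGAA was found in 9 of the 24 members and in 23.1% of all promoters. A match describes the letters in this window and is not a measured binding site, and the lack of one says only that these letters are absent from it.

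The libraries were of like depth, with 10760132 to 11827487 counted reads each. Summed over 10 enterocyte markers they held 15615 to 35663 CPM (counts scaled to library size), as ileum should, and the treatments could be read in known responders. All 7 glucocorticoid-induced check genes rose with Dex over both drinks, by LFCs (log2 fold changes, where 1 is a 2-fold difference) of 2.13 to 4.25. With ZnSO4 the metallothioneins Mt1 and Mt2 and the zinc exporter Slc30a2 rose, and the zinc importer Slc39a4 fell. B cell genes varied widely among mice of a group. The summed CPM of 10 B cell markers was 37.8, 763 and 215 in the 3 water + PBS mice, 115, 576 and 19.3 in the ZnSO4 + PBS mice, 272, 40.9 and 19.4 in the water + Dex mice, and 22.3, 26.7 and 90.6 in the ZnSO4 + Dex mice. All 10 of these markers were detected. The second mouse of each PBS group had the highest sums, and the first water + Dex mouse also stood above its fellows. Many results were computed with and without the 2 PBS libraries and are given below where they differ. The first water + Dex mouse was left out only in the fits without 1 library.

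Per length of transcript (RPKM, reads scaled to transcript length and library size), the members spanned a wide range of levels. In water + PBS mice the highest was Lyz2, a lysozyme of macrophages and monocytes, at 199 ± 105 RPKM (SD, n = 3). It was followed by the chains of the complement protein C1q, with C1qa at 62.4 ± 12.2 RPKM and C1qb at 53.5 ± 8.03 RPKM. These 2 chains did not differ beyond their spread. Tyrobp, the adaptor of many activating myeloid receptors, stood at 28.1 ± 8.53 RPKM and C1qc at 27.2 ± 6.16 RPKM, again without a gap beyond the spread. Mertk at 19.3 ± 1.76 RPKM and Csf1r at 12.6 ± 1.40 RPKM led the macrophage receptors. Of the 9 dendritic cell genes, Sirpa (6.88 RPKM) and Itgax (4.61 RPKM), which macrophages share, were at the level of macrophage receptors such as Adgre1 (4.79 RPKM) and Cx3cr1 (3.54 RPKM). The other 7 were between 0.347 and 1.46 RPKM, with Xcr1 at 0.561 ± 0.166 RPKM and Zbtb46, a transcription factor of these cells, lowest of all 33 at 0.347 ± 0.0828 RPKM. The macrophage receptor Cd163, at 0.888 RPKM, lay in the same range. Of the 5024 exonic bases of Itgam, 68.7% also belong to the annotated gene Gm49368 on the same strand, which received 0 or 1 reads per library. How reads that fall on both genes were counted is not given in the sources used here, so the Itgam level is uncertain. For Lyz2, 32.8% of the 31-base stretches recur elsewhere, chiefly in Lyz1, the Paneth cell lysozyme, whose normalised count was 50036 to 141366, so that reads shared by the pair make the Lyz2 level uncertain. The summed level of the 33 members was 918 ± 240 CPM in water + PBS, 920 ± 85.2 CPM in water + Dex, 748 ± 148 CPM in ZnSO4 + PBS and 800 ± 18.9 CPM in ZnSO4 + Dex mice (n = 3 each). The ranges of these sums overlapped between water and ZnSO4 mice injected with PBS and were apart between those injected with Dex. Scaled to raw library size the latter overlapped too, at 785 to 944 CPM in water + Dex and 778 to 848 CPM in ZnSO4 + Dex mice.

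**Figure D1:**
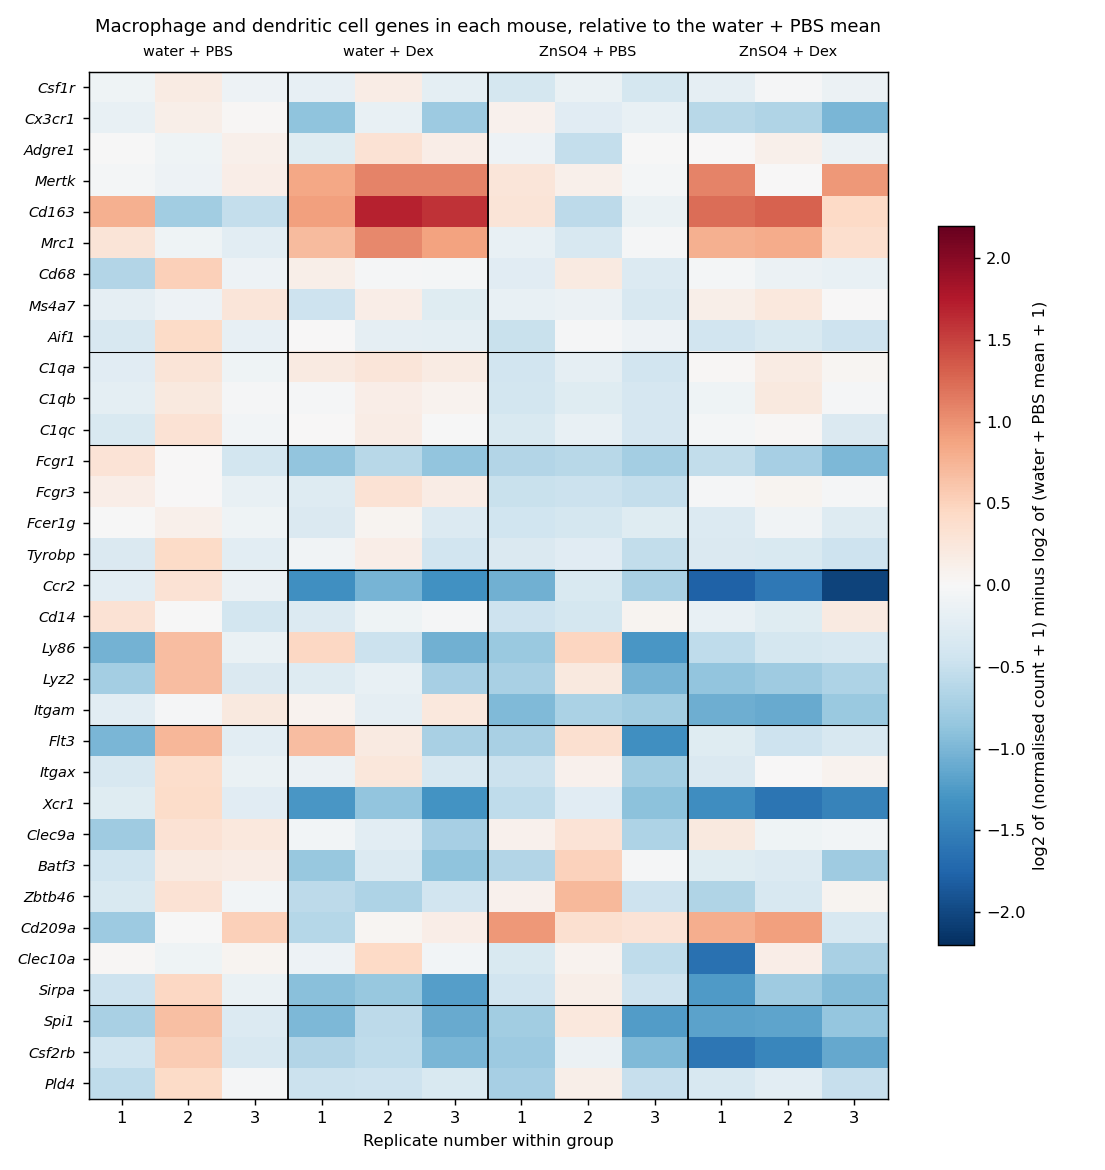
The colour gives, for each of the 33 genes (rows, ordered by role) and each of the 12 mice (columns, by group and replicate number), the log2 of the normalised count plus 1, minus the log2 of the water + PBS mean plus 1. Mertk, Cd163 and Mrc1 are red in the Dex groups except for Mertk in the second ZnSO4 + Dex mouse, Ccr2 and Xcr1 are blue there, and Itgam is blue in all 6 ZnSO4 mice.

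The question of the first comparison was what Dex does to the ileum within 2 h. Over both drinks, 3 macrophage receptors rose, Cd163, Mertk and Mrc1, and 3 genes fell, the monocyte receptor Ccr2, the dendritic cell receptor Xcr1 and Sirpa, with the other 27 members not called. A gene was called at a Benjamini-Hochberg adjusted p under 0.05 in edgeR's quasi-likelihood test and an LFC above 0.8 in size. The 6 members are 18.2% of the 33, and of all 15938 genes 6.31% were called. Since the members were chosen with earlier results of these data known, such shares do not test the set. By adjusted p alone 4 members rose and 5 fell, 27.3% of the 33, beside 21.5% of all genes. C1qa is the added rise, and Cx3cr1 and Csf2rb are the added falls. The 6 PBS and 6 Dex mice did not overlap in 2 members, Mrc1 and Sirpa, which is 6.06% of the members beside 9.74% of all genes. The median LFC of the 33 members was −0.06, beside −0.00135 for all genes tested, with 14 members above 0 and 19 below.

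**Figure D2:**
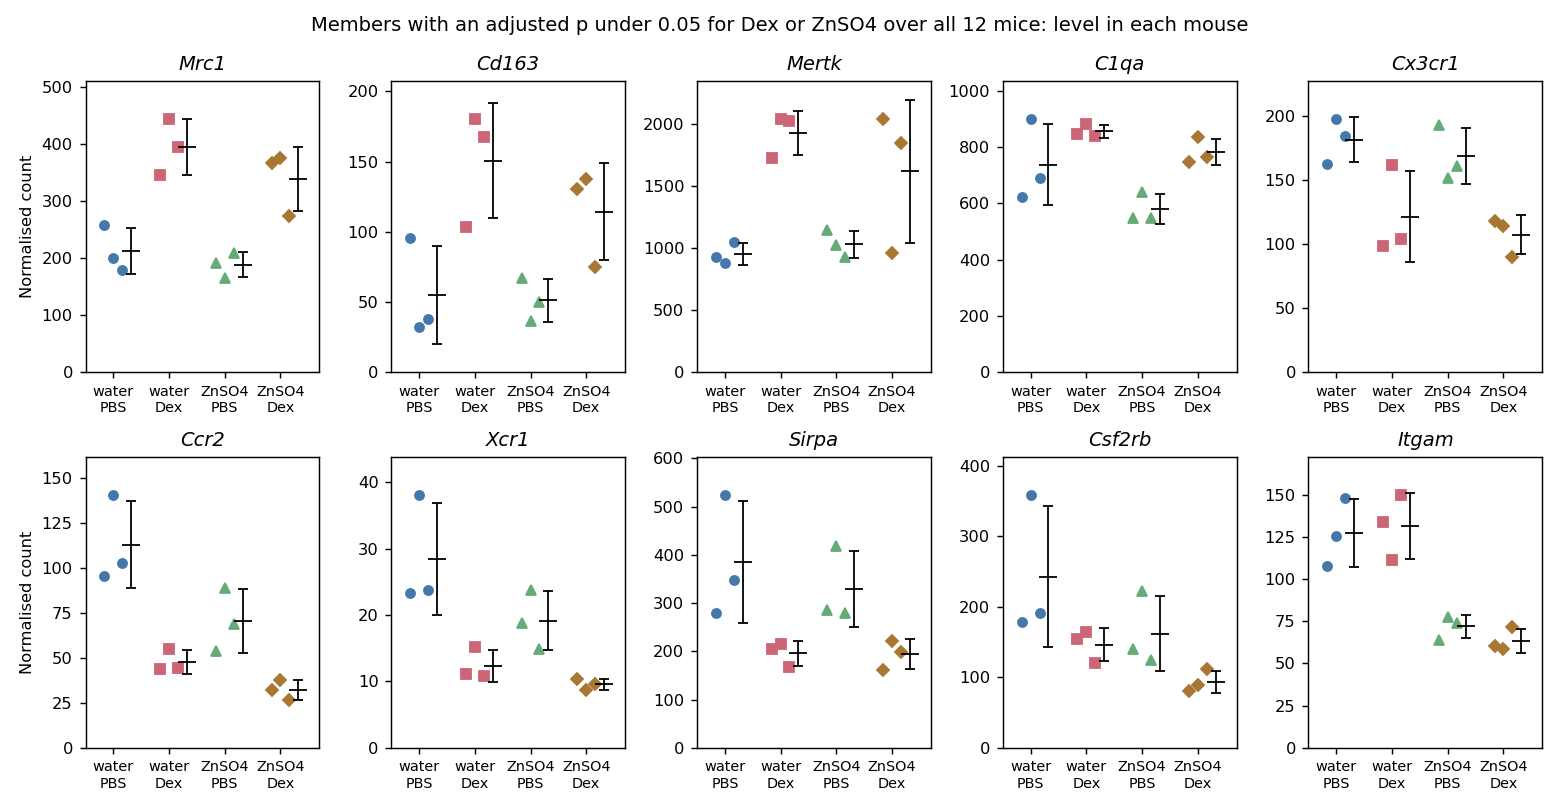
Each panel shows 1 gene, with the normalised count (linear axis from 0) of each of 12 mice as a point, and the mean with SD of the 3 mice of a group as a black bar. Mrc1, Cd163 and Mertk are higher after Dex, with 1 low ZnSO4 + Dex mouse for Mertk at 963, Ccr2, Xcr1, Sirpa, Cx3cr1 and Csf2rb are lower after Dex, and Itgam is lower in all ZnSO4 mice.

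Among the 9 macrophage receptors and markers, 3 rose with Dex and 1, Cx3cr1, fell by adjusted p alone. Mrc1 encodes the mannose receptor CD206, which takes up glycoproteins and is abundant on resident macrophages. Its normalised counts were 258, 200 and 180 in water + PBS mice and 346, 444 and 394 in water + Dex mice. In ZnSO4 + PBS mice they were 190, 166 and 209, and in ZnSO4 + Dex mice 366, 376 and 273. Every Dex mouse was above every PBS mouse, and the LFC over both drinks was 0.87 ± 0.12 (SE, adjusted p = 0.00024). Mrc1 was called with each drink, at 0.89 in water mice and 0.84 in ZnSO4 mice. Cd163 is the scavenger receptor for haemoglobin bound to haptoglobin. It had 95.3, 32.1 and 38.0 normalised counts in water + PBS mice and 104, 180 and 167 in water + Dex mice. In ZnSO4 + PBS mice it had 66.9, 36.6 and 50.02, and in ZnSO4 + Dex mice 131, 137 and 74.8. The groups did not overlap within a drink, but the first water + PBS mouse was above the third ZnSO4 + Dex mouse. The LFC over both drinks was 1.30 ± 0.29 (adjusted p = 0.0065), and the value in water mice, 1.45 (adjusted p = 0.043), was no longer called without any 1 of 7 of the 12 libraries, with adjusted p up to 0.14.

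Mertk encodes the receptor tyrosine kinase with which macrophages bind and engulf apoptotic cells. Its normalised counts were 929, 882 and 1050 in water + PBS mice and 1727, 2041 and 2024 in water + Dex mice. The ZnSO4 + PBS mice had 1143, 1027 and 927, and the ZnSO4 + Dex mice 2043, 963 and 1852. Of the 6 Dex mice, 5 were thus above every PBS mouse and the second ZnSO4 + Dex mouse was among them. The LFC was 0.83 ± 0.15 over both drinks (adjusted p = 0.0021), 1.02 in water mice (adjusted p = 0.011) and 0.65 in ZnSO4 mice (adjusted p = 0.072, and 0.028 with DESeq2). Without the second ZnSO4 + Dex mouse the value in ZnSO4 mice was 0.92 (adjusted p = 0.00031). That library also had the fewest reads of enterocyte markers, 15615 CPM against 28651 and 33402 CPM in its group, and the part of this in its Mertk level was not tested. Mertk and Cd163 are also among the genes already known to respond to glucocorticoids.

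Cx3cr1 encodes the fractalkine receptor that marks resident macrophages of the gut. It had 162, 198 and 184 normalised counts in water + PBS mice and 98.1, 162 and 104 in water + Dex mice. The ZnSO4 + PBS mice had 193, 152 and 161, and the ZnSO4 + Dex mice 118, 114 and 89.7. The groups were just apart within each drink, and the LFC over both drinks was −0.62 ± 0.14 (adjusted p = 0.0072), under the cut-off on size. The other 5 genes of this role did not pass the test for Dex over both drinks. Csf1r, the receptor for the macrophage growth factors CSF1 and IL-34, is the reference receptor of the lineage. It had 776, 931 and 767 normalised counts in water + PBS mice and 724, 920 and 709 in water + Dex mice, with 634, 741 and 633 in ZnSO4 + PBS and 720, 813 and 751 in ZnSO4 + Dex mice. The water groups overlapped, and the LFC over both drinks was 0.06 with a 95% confidence interval of −0.12 to 0.24. Adgre1, which encodes the classical mouse macrophage antigen F4/80, had an LFC of 0.14 (−0.12 to 0.40). Cd68, a lysosomal glycoprotein, had 0.01 (−0.38 to 0.39), Ms4a7, a membrane protein of tissue macrophages, 0.09 (−0.18 to 0.35), and Aif1, the actin-bundling protein IBA1, −0.17 (−0.48 to 0.14). Intervals for these 5 genes exclude the 0.8 cut-off in both directions.

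**Figure D3:**
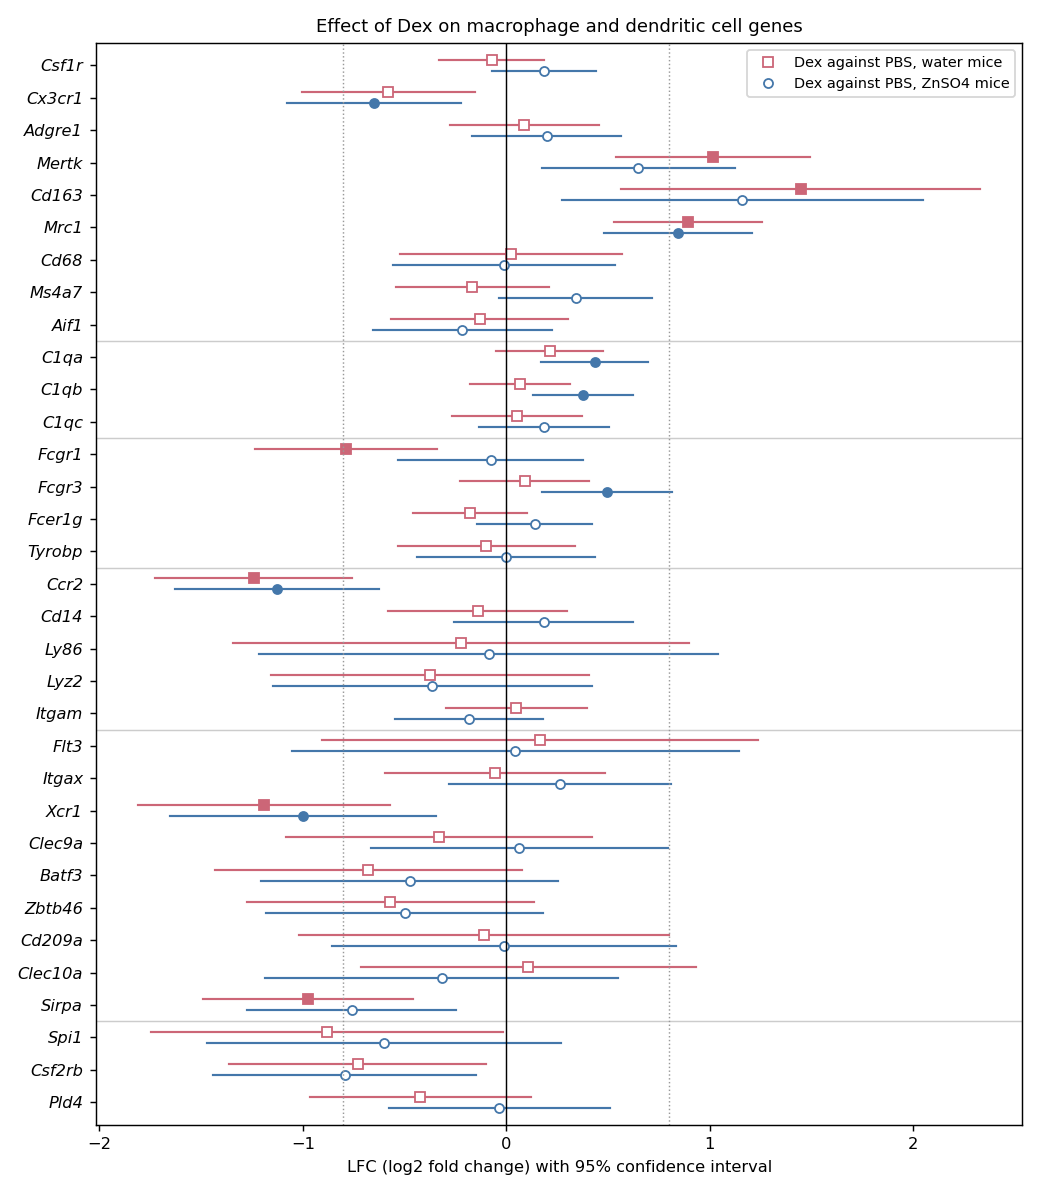
Points give the LFC of Dex against PBS for each of the 33 genes, in water mice (squares) and in ZnSO4 mice (circles), with 95% confidence intervals on a linear log2 axis. Filled points have an adjusted p under 0.05, dotted lines mark an LFC of 0.8 in size, and grey lines part the roles. Cd163 has the highest values, 1.45 and 1.16, and Ccr2 the lowest, −1.24 and −1.13.

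The 3 chains of C1q, the recognition unit of the classical complement pathway, are encoded side by side on the minus strand of chromosome 4 and are made by tissue macrophages. C1qa had 624, 900 and 690 normalised counts in water + PBS mice and 846, 883 and 839 in water + Dex mice. The ZnSO4 + PBS mice had 549, 642 and 548, and the ZnSO4 + Dex mice 749, 836 and 765. Only the ZnSO4 groups were apart, since the second water + PBS mouse was the highest of all. The LFC of C1qa was 0.32 ± 0.09 over both drinks (adjusted p = 0.018) and 0.43 in ZnSO4 mice (adjusted p = 0.034). C1qb, with 502 to 553 normalised counts in ZnSO4 + PBS mice and 619 to 767 in ZnSO4 + Dex mice, rose in ZnSO4 mice (LFC 0.38, adjusted p = 0.047), and over both drinks the value was 0.22 (adjusted p = 0.068). C1qc did not pass in either. Both calls in ZnSO4 mice were near the threshold, and 8 (C1qa) and 10 (C1qb) of the 12 libraries ended them when left out.

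Of the 4 Fc receptor and adaptor genes, none passed the test for Dex over both drinks in the reported edgeR fit or in DESeq2, while 2, Fcgr1 and Fcgr3, had an unadjusted p under 0.05. Fcgr1 passed by adjusted p in 3 other edgeR fits (adjusted p = 0.020 to 0.046) and Fcgr3 in 1 (adjusted p = 0.0082). Fcgr1 encodes the high-affinity receptor for IgG and is much used as a macrophage marker. It had 72.0, 58.2 and 43.7 normalised counts in water + PBS mice and 31.2, 37.8 and 31.3 in water + Dex mice. The ZnSO4 + PBS mice had 36.8, 37.5 and 34.3, and the ZnSO4 + Dex mice 39.4, 34.6 and 28.8. The water + PBS mice were thus above all 9 others. Fcgr1 fell with Dex in water mice by adjusted p alone (LFC −0.79 ± 0.20, adjusted p = 0.030), a call lost with DESeq2 (0.058) and without any 1 of 4 libraries. Fcgr3, a low-affinity IgG receptor of which 13.4% of the 31-base stretches recur elsewhere, chiefly in Fcgr2b, rose in ZnSO4 mice by adjusted p alone (LFC 0.50 ± 0.15, adjusted p = 0.043), a call lost without any 1 of 9 libraries. It had 129, 132 and 126 normalised counts in ZnSO4 + PBS mice and 178, 189 and 178 in ZnSO4 + Dex mice, against 201, 183 and 163 in water + PBS and 149, 229 and 204 in water + Dex mice. The ZnSO4 groups were apart and the water groups overlapped. The difference between the Dex effects in the 2 drinks did not pass for Fcgr1 (0.71 ± 0.29, adjusted p = 0.95) or Fcgr3 (0.41 ± 0.20, adjusted p = 0.95). Fcer1g and Tyrobp, the signalling adaptors that pair with these receptors, had LFCs of −0.02 (−0.22 to 0.18) and −0.05 (−0.36 to 0.26) over both drinks.

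Of the 5 monocyte and microbial recognition genes, Ccr2 fell. CCR2 lets monocytes leave the bone marrow and enter tissues along the chemokine CCL2. Its normalised counts were 95.3, 140 and 103 in water + PBS mice and 43.5, 55.1 and 44.3 in water + Dex mice. They were 53.7, 88.8 and 68.5 in ZnSO4 + PBS mice and 32.1, 37.5 and 26.7 in ZnSO4 + Dex mice. Within each drink the groups were apart, and the first ZnSO4 + PBS mouse lay just under the second water + Dex mouse. The LFC was −1.18 ± 0.16 over both drinks (adjusted p = 0.00023), −1.24 in water mice and −1.13 in ZnSO4 mice, and it stayed called without any 1 of the 12 libraries. The other 4 genes did not pass. Lyz2 had 1782, 4768 and 2388 normalised counts in water + PBS, 2445, 2646 and 1795 in water + Dex, 1825, 3437 and 1468 in ZnSO4 + PBS and 1628, 1740 and 1859 in ZnSO4 + Dex mice. The second mouse of each PBS group was highest and all groups overlapped. Ly86, the MD-1 protein that binds the receptor RP105, spanned 75.0 to 297 normalised counts, and its LFC over both drinks of −0.15 had an interval of −0.95 to 0.64, so a change of the size of the cut-off was not detectable. Cd14, the co-receptor for bacterial lipopolysaccharide, had an LFC of 0.02 (−0.29 to 0.33), and Itgam, the integrin chain CD11b, −0.07 (−0.32 to 0.18).

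Of the 9 dendritic cell genes, Xcr1 and Sirpa fell with Dex. Xcr1 encodes the chemokine receptor of cross-presenting dendritic cells. It had 23.3, 38.1 and 23.8 normalised counts in water + PBS mice and 11.1, 15.1 and 10.8 in water + Dex mice. It had 18.9, 23.8 and 14.8 in ZnSO4 + PBS mice and 10.4, 8.65 and 9.61 in ZnSO4 + Dex mice. The groups were apart within each drink, and the third ZnSO4 + PBS mouse lay just under the second water + Dex mouse. The LFC was −1.09 ± 0.21 over both drinks (adjusted p = 0.0025), −1.19 in water mice (adjusted p = 0.020) and −0.999 in ZnSO4 mice (adjusted p = 0.046). Calls within a drink rested on few reads, were lost without any 1 of 3 (water) or 10 (ZnSO4) libraries, and were lost with DESeq2, at adjusted p = 0.053 and 0.13. Sirpa encodes the receptor that reads the "do not eat me" protein CD47 and is carried by macrophages as well as by the second class of dendritic cells. It had 280, 525 and 349 normalised counts in water + PBS mice, 204, 216 and 166 in water + Dex mice, 286, 419 and 280 in ZnSO4 + PBS mice and 161, 222 and 199 in ZnSO4 + Dex mice. All 6 Dex mice were below all 6 PBS mice. The LFC of Sirpa was −0.87 ± 0.17 over both drinks (adjusted p = 0.0028), −0.98 in water mice (adjusted p = 0.021) and −0.76 in ZnSO4 mice (adjusted p = 0.053, and 0.011 to 0.049 in 8 other fits). The call in water mice was lost without any 1 of 3 libraries, the second water + PBS mouse and the first or the third water + Dex mouse.

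The other markers of the XCR1 class did not pass the test. Clec9a, its receptor for the actin of dead cells, had 14.6 to 32.1 normalised counts over all 12 mice and an LFC over both drinks of −0.13 (−0.66 to 0.39). Batf3, the transcription factor this class needs, had −0.58 (−1.10 to −0.05, adjusted p = 0.11). Zbtb46, which marks conventional dendritic cells, had −0.53 (−1.02 to −0.04, adjusted p = 0.12). The intervals of Batf3 and Zbtb46 include the cut-off on the lower side. Flt3, the growth factor receptor of dendritic cell precursors, had 37.0, 124 and 63.7 normalised counts in water + PBS mice and 120, 86.4 and 45.4 in water + Dex mice, a spread that left an interval of −0.66 to 0.87. Itgax, the integrin chain CD11c that macrophages of the gut share, had 0.10 (−0.28 to 0.49). The lectins Cd209a and Clec10a, at −0.06 (−0.68 to 0.56) and −0.10 (−0.70 to 0.49), had among the lowest counts of the members.

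The last 3 members act in several myeloid cells and B cells. Csf2rb encodes the common chain of the receptors for GM-CSF, IL-3 and IL-5. It had 179, 359 and 191 normalised counts in water + PBS mice, 155, 164 and 120 in water + Dex mice, 140, 222 and 124 in ZnSO4 + PBS mice and 79.8, 89.3 and 111 in ZnSO4 + Dex mice. The groups were apart within each drink, and ZnSO4 + PBS mice overlapped with water + Dex mice. It fell over both drinks by adjusted p alone (LFC −0.76 ± 0.21, adjusted p = 0.020), a value of −0.42 (adjusted p = 0.046) without the 2 PBS libraries that were richest in B cell markers. The call was lost without the third water + Dex mouse or the first ZnSO4 + Dex mouse, with adjusted p up to 0.055. Of the 31-base stretches of Csf2rb, 19.6% recur elsewhere, chiefly in the near copy Csf2rb2. Spi1, which encodes PU.1, spanned 66.7 to 250 normalised counts and had an LFC of −0.74 (−1.35 to −0.13, adjusted p = 0.084). It passed in 4 other fits (adjusted p = 0.035 to 0.045). These were DESeq2, the fit of all genes with at least 1 count, and those without the first water + PBS or the third ZnSO4 + PBS mouse. Each of these mice had the lowest Spi1 of its group, at 96.3 and 66.7 normalised counts. Spi1 did not pass with the B cell markers as a covariate or without the 2 PBS libraries richest in them. Pld4, an endosomal nuclease, had −0.23 (−0.61 to 0.16).

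Within each drink, Dex in water mice called 3 higher and 3 lower members, 18.2% beside 4.42% of all genes, namely the 6 called over both drinks from libraries that include these. Dex in ZnSO4 mice called 1 higher, Mrc1, and 2 lower, Ccr2 and Xcr1, 9.09% beside 5.81% of all genes. DESeq2 called 4 there, with Cd163 (adjusted p = 0.032) and Csf2rb (0.0499) added and Xcr1 lost. By adjusted p alone the counts were 7 and 7, beside 9.93% and 13.7% of all genes. The 3 PBS and 3 Dex mice did not overlap in 10 members in water mice, 30.3% beside 29.7% of all genes, and in 11 members in ZnSO4 mice, 33.3% beside 29.1%. A difference of the Dex effect between the drinks was found for none of the 33 members by edgeR or DESeq2, and 1 member, Fcgr1, had an unadjusted p under 0.05, while edgeR called 0 of all 15938 genes (0%) and DESeq2 called 6. With 3 mice against 3 an exact permutation test of a single gene cannot give a two-sided p under 0.1, so calls rest on the model fitted over all genes.

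The B cell marker values of the PBS mice moved with many members. The second water + PBS mouse was the highest of its group in 22 of 33 members (66.7%, beside 35.6% of all genes tested), and the second ZnSO4 + PBS mouse in 25 (75.8%, beside 32.5%). Both were highest in 20 members (60.6%, beside 17.7%). The second water + Dex mouse was likewise highest in 23 members (69.7%, beside 33.7%) at a B cell marker sum of 40.9 CPM. In all 3 of these mice the summed T cell markers were also the highest of the group, at 208 CPM against 114 and 112 CPM in water + PBS, 125 against 77.7 and 60.6 CPM in ZnSO4 + PBS, and 139 against 115 and 105 CPM in water + Dex mice. The part of these cells in the members' spread was not tested. Within a group, the highest mouse exceeded the lowest by a median of 1.41-fold over the members and 1.24-fold over all genes. Lyz2, Ly86, Flt3 and Spi1 followed the B cell markers in the PBS groups, and Mrc1 did not. With the B cell markers as a covariate, the Dex values over both drinks of the 9 members with an adjusted p under 0.05 kept their sign and their side of that threshold, for example −1.09 for Ccr2, −0.90 for Xcr1, −0.64 for Sirpa, 0.73 for Mrc1, 0.95 for Cd163 and 0.84 for Mertk. Without the 2 PBS libraries they were −0.99, −0.87, −0.61, 0.81, 1.07 and 0.81 in the same order. Sirpa was then under the cut-off on size in either fit, and Mrc1 in the fit with the covariate. In water mice alone, Mrc1 and Ccr2 remained called without these 2 libraries, 2 members in place of 6, while the share called of all genes was 3.83% in place of 4.42%.

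**Figure D4:**
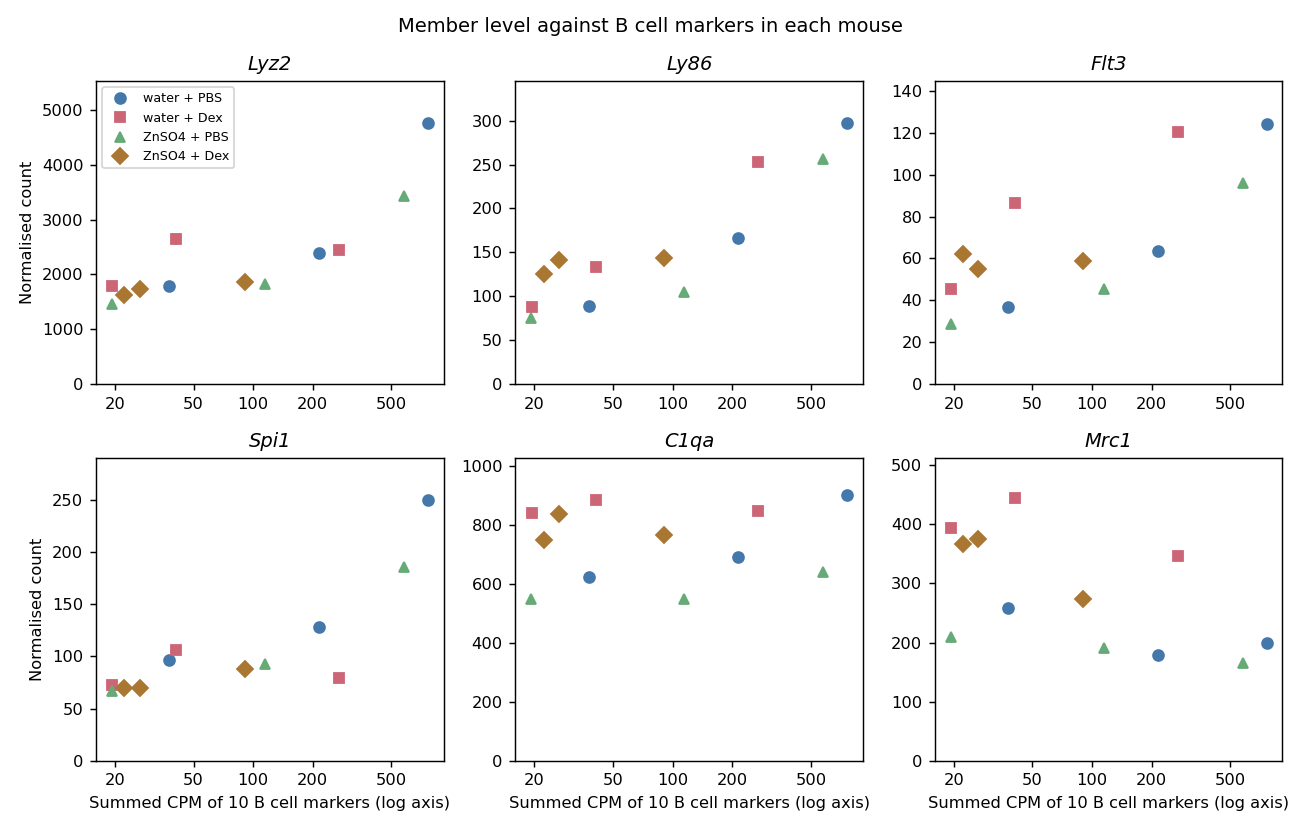
Each panel plots the normalised count of 1 gene (linear axis from 0) against the summed CPM of 10 B cell markers (log axis) in each of the 12 mice, with a symbol per group. The second water + PBS mouse at 763 CPM and the second ZnSO4 + PBS mouse at 576 CPM hold the highest Lyz2, at 4768 and 3437, and in the Mrc1 panel all Dex mice, which reach 272 CPM, lie above all PBS mice; the 6 genes shown were chosen after their values were seen.

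The next comparison asked what 7 days of ZnSO4 do, and it uses the same libraries as the Dex comparison, grouped by drink. Over both injections Itgam fell, 1 of 33 members (3.03%, beside 2.71% of all genes), and by adjusted p alone Ccr2 fell too (6.06%, beside 12.8%). Csf2rb, at an LFC of −0.62 (adjusted p = 0.072), passed by adjusted p in 6 other fits, DESeq2 among them (adjusted p = 0.030). No member rose, 28 of 33 LFCs were below 0, and the median was −0.21, beside −0.00459 for all genes. In 11 members, 33.3%, the unadjusted p was under 0.05, beside 28.5% of all genes. Itgam encodes CD11b, the chain that pairs with CD18 to form the complement receptor CR3 of monocytes, macrophages, neutrophils and some dendritic cells. It had 108, 125 and 148 normalised counts in water + PBS mice and 134, 111 and 150 in water + Dex mice. It had 64.1, 77.8 and 74.1 in ZnSO4 + PBS mice and 60.1, 58.6 and 71.6 in ZnSO4 + Dex mice. All 6 ZnSO4 mice were below all 6 water mice, as were 3.03% of the members and 2.62% of all genes. The LFC was −0.94 ± 0.12 over both injections (adjusted p = 0.00042), −0.82 in PBS mice (adjusted p = 0.017) and −1.05 in Dex mice (adjusted p = 0.0046). The value in PBS mice was lost without any 1 of 3 libraries, the third water + PBS mouse, the first ZnSO4 + PBS mouse and the third ZnSO4 + PBS mouse, with adjusted p up to 0.073, and the other 2 values were lost in no fit without 1 library. The overlapping Gm49368 held 0 or 1 reads in each library, which does not show whether reads on the shared bases were counted for Itgam.

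Ccr2 in ZnSO4 mice, with the values given above, had an LFC of −0.62 ± 0.16 over both injections (adjusted p = 0.026), a call that leaving out any 1 of 6 libraries ended. In PBS mice alone 1 member, Itgam, was called with ZnSO4 (3.03%, beside 1.70% of all genes), and in Dex mice alone again 1, Itgam (3.03%, beside 1.90%). Dropping the cut-off on size added none in this fit, while the shares of all genes were then 4.66% and 4.37%. The unadjusted p was under 0.05 in 8 members in PBS mice (24.2%, beside 19.8% of all genes) and in 2 members in Dex mice (6.06%, beside 19.1%). The groups did not overlap in 7 members in each of these comparisons, always with ZnSO4 lower, which is 21.2% of members, while 12.9% of all genes in PBS mice and 13.2% in Dex mice were lower without overlap. In PBS mice these 7 were Csf1r, C1qb, Fcgr1, Fcgr3, Fcer1g, Ccr2 and Itgam. The 4 Fc receptor and adaptor genes had LFCs over both injections of −0.32 (Fcgr1), −0.30 (Fcgr3), −0.21 (Fcer1g) and −0.32 (Tyrobp), with adjusted p of 0.079 to 0.17. The LFC of Cd209a, a lectin of dendritic cells, was the highest, 0.63 ± 0.28 (adjusted p = 0.17). T cell markers moved in the same direction, with a summed 105 to 208 CPM over 11 genes in the 6 water mice and 60.6 to 125 CPM in the 6 ZnSO4 mice, and 5 of the 11 fell. Of 9 plasma cell markers 4 fell, with a median LFC of −0.65 and 8 of 9 below 0. The 10 neutrophil markers, at few reads, summed to 5.41 to 11.8 CPM in water mice and 3.94 to 4.88 CPM in ZnSO4 mice. Markers of other cells leaned the other way, with LFCs above 0 for 8 of 8 smooth muscle markers (median 0.35), 7 of 9 fibroblast and endothelial markers (0.33) and 7 of 7 goblet cell markers (0.28), of which 1, a goblet cell marker, was called. The part of such shifts in the members' values was not tested.

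**Figure D5:**
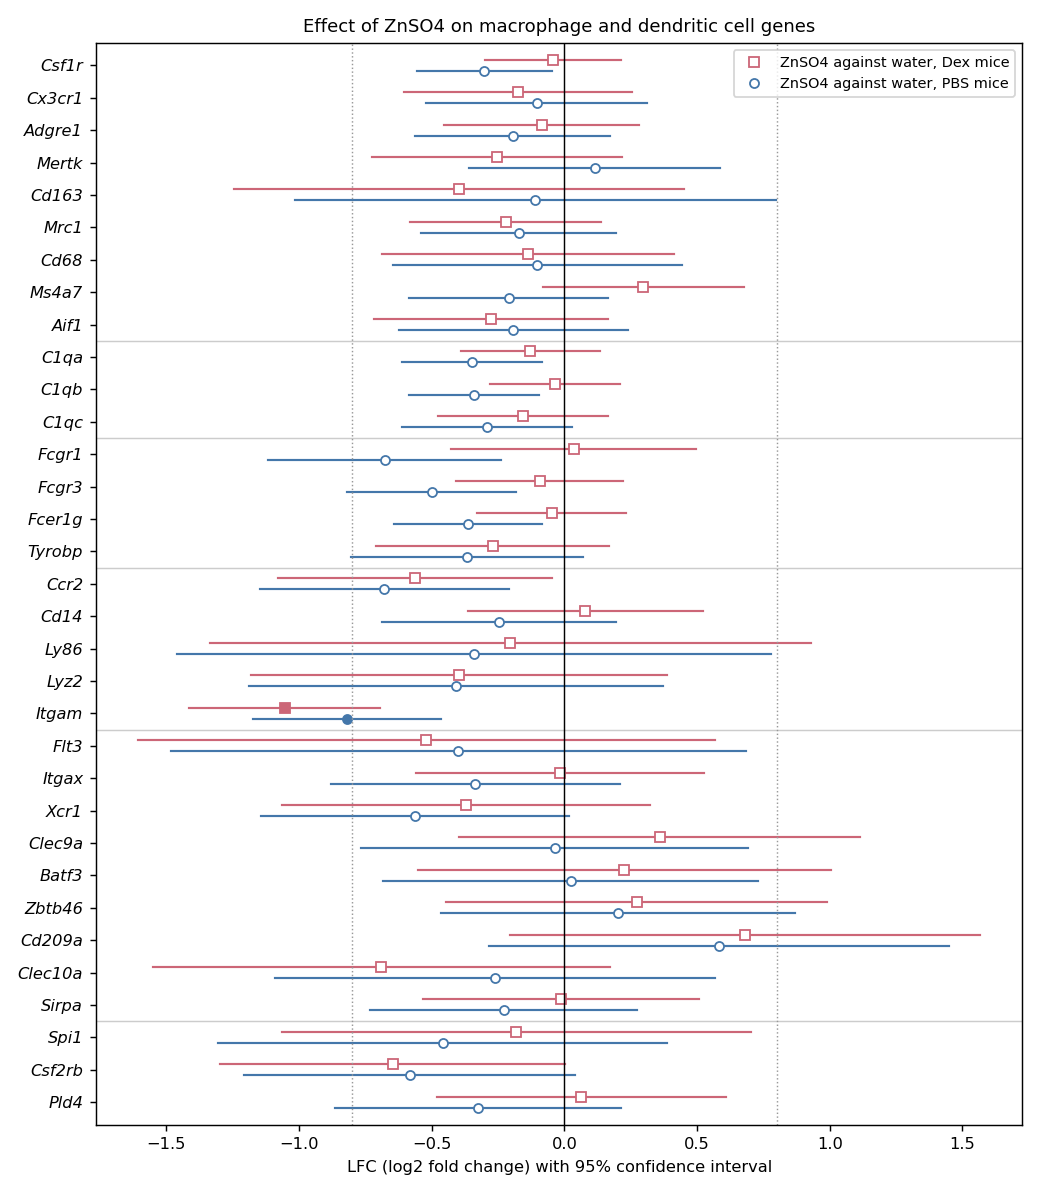
Points give the LFC of ZnSO4 against water for each of the 33 genes, in PBS mice (circles) and in Dex mice (squares), with 95% confidence intervals on a linear log2 axis. Filled points have an adjusted p under 0.05, dotted lines mark 0.8 in size. Itgam, at −0.82 and −1.05, holds the only filled points, and most other points lie left of 0.

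The growth factors and chemokines that act on these receptors were measured in the same libraries. Of 14 tested ligands, 1 rose and 6 fell with Dex over both drinks. The chemokines of CCR2 were among the falls. Ccl2 had 13 to 61 reads in the water + PBS libraries and 0 to 1 in the water + Dex libraries, and 6 to 33 in ZnSO4 + PBS and 0 in all ZnSO4 + Dex libraries. Against a floor of 3 counts per library, the level in ZnSO4 + Dex mice was at least 5.65-fold lower than in ZnSO4 + PBS mice. Ccl7 had 6 to 37 reads in water + PBS and 1 to 5 in water + Dex, and Ccl12 had 7 to 25 and 1 to 4. Ccr2 and 3 of its ligands thus fell in the same mice. Cx3cl1, the fractalkine bound by CX3CR1, fell from 1301 ± 124 to 691 ± 42.3 normalised counts in water mice and from 1064 ± 100 to 599 ± 109 in ZnSO4 mice (LFC −0.87, adjusted p = 3.0e-05). Xcl1, the lymphocyte chemokine bound by XCR1, went from 17.6 ± 2.90 to 10.9 ± 4.62 and from 8.94 ± 2.87 to 2.01 ± 0.909 (LFC −1.38, adjusted p = 0.0070). The last of the 6 falls, named after its value was seen, was Tgfb1, a cytokine that shapes gut macrophages (LFC −0.84, adjusted p = 0.044). Il10, the cytokine that restrains gut macrophages, rose from 3.94 ± 2.66 to 16.4 ± 2.77 and from 0.928 ± 0.0139 to 4.82 ± 1.79 (adjusted p = 0.0029). It had 1 to 6 reads per library in water + PBS and 13 to 18 in water + Dex mice. In ZnSO4 + PBS mice it had 1 read in each library and in ZnSO4 + Dex mice 3 to 6, near the floor of 3 counts.

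With ZnSO4 over both injections none of the 14 ligands rose past the cut-off on size and 3 fell. Ccl8, a chemokine of monocytes and macrophages, had 46.8 and 81.0 ± 22.4 normalised counts in water + PBS and water + Dex mice, and 11.1 ± 2.71 and 10.1 ± 2.91 in ZnSO4 + PBS and ZnSO4 + Dex mice (LFC −2.52 ± 0.23, SE, adjusted p = 7.1e-05). Xcl1 fell (LFC −1.66, adjusted p = 0.0047), as did Il10 (adjusted p = 0.014), at the levels given above, which for Il10 rest on few reads. By adjusted p alone Cd47, the ligand of SIRPα, fell (LFC −0.52), and Gas6 and Pros1, the bridging ligands of MERTK, rose by 0.44 and 0.43.

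Other macrophage genes outside the 33 gave the following counts. Of 32 tested, 6 rose and 1 fell with Dex over both drinks. Lyve1, which perivascular macrophages share with lymphatic vessels, rose by an LFC of 1.40 ± 0.06 (SE), and the membrane genes Ms4a6d and Ms4a4a by 1.28 and 1.27. The single fall was Clec7a, the β-glucan receptor dectin-1 (LFC −0.92 ± 0.21, adjusted p = 0.0092), named after its value was seen. With ZnSO4 over both injections none of the 32 was called by edgeR, and 8 had an unadjusted p under 0.05. By adjusted p alone Lgmn, a lysosomal protease (LFC −0.51), Msr1, a scavenger receptor (−0.48), and Ctss, the protease that prepares MHC class II (−0.36), fell.

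Of 24 other dendritic cell genes tested, 1 rose and 1 fell with Dex over both drinks. The rise was Ccl17, a chemokine of mature dendritic cells (LFC 2.26 ± 0.33, adjusted p = 0.00041). The fall was Irf8, the transcription factor on which XCR1-positive dendritic cells depend and which B cells also use (LFC −1.22 ± 0.10, adjusted p = 5.2e-06). Irf8 had 1768 ± 265 normalised counts in water + PBS and 701 ± 94.9 in water + Dex mice. By adjusted p alone 2 of the 24 rose and 6 fell, beside 21.5% of all genes. Of the 24 LFCs, 8 were above 0 and 16 below. Among the falls by adjusted p, Tlr3, the receptor for double-stranded RNA that this class carries, fell by 0.63. Naaa, a lipid hydrolase of the same class, fell by 0.47. The member Clec9a, a receptor of this class, did not pass the test. With ZnSO4 over both injections 3 fell, the chemokine Ccl22 (LFC −1.07), the integrin chain Itgae that T cells share (−0.84) and Irf4 (−0.80), a transcription factor that B cells share, and none rose.

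A list of 21 tested genes known to respond to glucocorticoids in macrophages had 9 rises and 4 falls with Dex over both drinks. It includes the members Cd163, Mertk, Mrc1, Cd14, Ccr2 and Cx3cr1, and the check genes Fkbp5, Tsc22d3 and Per1. Fkbp5 (LFC 3.36) and Tsc22d3 (3.22), which many cell types induce, had the largest rises, and the falls were led by Ccl2 and by Il1b, the cytokine interleukin-1β (LFC −3.16). The median LFC of the list was 0.16. Of 12 tested products of macrophages in inflammation, which include the restraining cytokine Il10, 5 fell and 1, Il10, rose. Il1b went from 75.0 ± 26.9 to 5.10 ± 2.73 normalised counts in water mice and from 30.6 ± 10.1 to 5.44 ± 1.59 in ZnSO4 mice, and Cxcl10, an interferon-induced chemokine, from 110 ± 43.8 to 9.84 ± 1.26 and from 32.7 ± 7.11 to 5.72 ± 1.80. Cxcl1, a neutrophil chemokine, had 7 to 46 reads per library in water + PBS and 0 to 1 in water + Dex mice. With ZnSO4 over both injections 5 of the 12 fell and none rose. Nos2, the inducible nitric oxide synthase that epithelial cells of the ileum also make, had the largest fall (LFC −2.01 ± 0.23, adjusted p = 0.00026), followed by Il10 and the T cell chemokines Cxcl9 (−1.41) and Ccl5 (−1.34).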

How the data were processed

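Total RNA of 12 ileum samples was made into stranded TruSeq libraries and sequenced single-end. Per the labels and the submitters' processing notes, Trimmomatic, HISAT2 2.0.4, SAMtools and featureCounts were used with genome build mm10. The authors deposited raw counts per Ensembl gene; reads mapping to several positions were left out, and the annotation release and strand setting are not given in the sources used here. The file holds 54838 rows, of which 54723 had a symbol in GENCODE M21. In R 4.3.3 with edgeR 4.0.16 and limma 3.58.1, genes were filtered with filterByExpr by group (minimum count 10), scaled by TMM and fitted with glmQLFit as 4 group means over all 12 libraries, and contrasts were tested with glmQLFTest. Adjusted p are Benjamini-Hochberg values over 15938 genes. "Over both drinks" and "over both injections" are the means of 2 contrasts. A gene was called at an adjusted p under 0.05 and an LFC over 0.8 in size, and the interaction had no cut-off on size. Normalised counts were scaled to the mean effective library size; values are mean ± SD of 3 mice. RPKM used exonic lengths. Precision is limited by 3 mice per group at a median of 11388606 counted reads per library, and floors cover counting error only. No source says which mice shared a cage or a preparation day. Counts differed between libraries of a group by more than sampling noise, with a chi-square of 8.30 or more per degree of freedom, so each was kept as a sample. Scripts were tested on simulated data. DESeq2 1.42.0, other scalings and filters, fits without each library and a B cell covariate were alternatives. All 33 members are described. From other lists up to 4 genes with the largest LFC were named, beside genes on which a result turns. The members and lists were chosen with earlier results of these data known. 1 gene of these lists is not reported here.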

Additional observations from a re-analysis of the deposited data

How the results depend on the processing

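The members called for Dex over both drinks numbered 6 in the reported fit, 4 to 9 in the other fits and 5 to 8 without 1 library. The exception was the test against an LFC of 0.8 itself. It called 0 members in each of the 6 comparisons, beside 0.238% to 2.2% of all genes. For Dex over both drinks, the shares of all genes were 6.31% in the reported fit and 5.7% to 6.55% without 1 library. Apart from that test, the other fits with the cut-off on size called 3.92% to 6.44% of all genes. By adjusted p alone 9 members passed, beside 21.5% of all genes. ZnSO4 in PBS mice called 1 member, and 0 with upper-quartile factors, with only the groups compared, without the 2 PBS libraries richest in B cell markers (an alternative chosen after seeing the data), and 0 to 1 without 1 library. The shares of all genes were 1.70%, then 1.73%, 1.26% and 0.975% in these 3 fits, and 1.07% to 1.85% without 1 library. Dex in water mice called 6, 2 without those 2 libraries and 3 to 6 without 1 library, with 3 when water + Dex replicate 3 or water + PBS replicate 2 was left out. The shares of all genes were 4.42%, 3.83% and 3.37% to 4.49%. Without that Dex replicate the share was 3.37%, and without that PBS replicate 3.83%. Dex in ZnSO4 mice called 3, 7 by adjusted p alone, 1 with the B cell covariate, 1 without those 2 libraries and 1 to 3 without 1 library, with 1 when ZnSO4 + Dex replicate 1 or ZnSO4 + PBS replicate 2 was left out. The shares of all genes were 5.81%, 13.7%, 5.76%, 5.28% and 4.68% to 5.97%. Without that Dex replicate the share was 4.68%, and without that PBS replicate 5.18%. ZnSO4 over both injections called 1, and 2 by adjusted p alone, beside 2.71% and 12.8% of all genes. Ly86 changed sign for Dex over both drinks with the B cell covariate, to 0.52 (adjusted p = 0.042), from −0.15, and the cause was not tested. Flt3 passed in that fit, at 0.75 (adjusted p = 0.018), from 0.11. Replicate numbers came from the labels with no statement that they mark shared cages or days. The residuals of same-numbered libraries had a median correlation of −0.0557 over 18 pairs, with single pairs from −0.359 to 0.457. Such correlations cannot show whether same-numbered mice shared a cage or a day. With the replicate block the counts of called members were 6 and 3 for Dex in water and ZnSO4 mice, 6 over both drinks, 1 for each ZnSO4 comparison and 0 for the interaction. The shares of all genes in that fit were 4.32%, 5.58% and 6.03% for these Dex comparisons. They were 1.54% to 2.67% for the ZnSO4 comparisons. By adjusted p the block added Csf1r, C1qb and Ccr2 for ZnSO4 in PBS mice (0.034 to 0.042), Csf1r, C1qa, C1qb and Csf2rb for ZnSO4 over both injections (0.040 to 0.049), Sirpa for Dex in ZnSO4 mice (0.011), and C1qb (0.013) and Fcgr1 (0.046) for Dex over both drinks. DESeq2 called 4 members for Dex in ZnSO4 mice, beside 6.00% of all genes. Low counts limit Xcr1, Clec9a, Batf3, Zbtb46, Cd209a and Clec10a.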

Other observations

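Markers of granulocytes and mast cells were measured beside the members. Of 10 neutrophil markers, 5 stayed below 10 reads in every library. The 10 summed to 5.41 to 11.8 CPM in the 6 water mice and 3.94 to 4.88 CPM in the 6 ZnSO4 mice. The 4 that could be tested all had LFCs below 0 with ZnSO4 over both injections (median −1.04). Of the 4 that could be tested, Ltf, the iron-binding lactoferrin that epithelial cells also secrete, fell with ZnSO4 over both injections (LFC −2.58 ± 0.37, adjusted p = 0.0011 in edgeR), from 27.7 ± 12.7 normalised counts in water + PBS and 28.3 ± 10.7 in water + Dex mice to 3.39 ± 1.88 and 6.24 ± 3.36 in the ZnSO4 groups. The 6 eosinophil markers summed to 5.94 to 11.6 CPM. Epx, the eosinophil peroxidase, had means of 0.651 and 1.23 normalised counts in water + PBS and ZnSO4 + PBS mice and 10.9 ± 0.200 and 12.0 ± 2.46 in water + Dex and ZnSO4 + Dex mice (adjusted p = 2.8e-05 for Dex over both drinks). Alox15, a lipoxygenase of eosinophils and some macrophages, rose with Dex (LFC 0.94 ± 0.28, adjusted p = 0.034). The other 3 eosinophil markers tested did not pass. The 8 mast cell markers summed to 44.8 to 104 CPM, and 4 of them stayed below 10 reads in every library. Kit, which mast cells share with the pacemaker cells of gut muscle, rose with Dex (LFC 0.41) and with ZnSO4 (LFC 0.55) by adjusted p alone. These genes were not members of the list described above.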
